A study of Mus musculus with 24 samples.

Results

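The gene group described here is the nuclear receptor Pparg with its PPAR and RXR relatives, the co-regulators Ppargc1a, Ppargc1b and Ncor1, and the transcription factor gene Cebpa. The members are a list of gene symbols; the list sets no threshold on a measured value, but it was drawn up with earlier results of these data known. Of the 10 symbols, 9 are listed in the control table, which holds 19780 genes, and in the paused table, which holds 19979. Ppargc1a, which codes for the PGC-1α co-activator, is listed in neither, and no level or limit is given for it.

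The libraries were poly(A) RNA of mouse E14 embryonic stem cells grown on gelatin in serum with leukaemia inhibitory factor (LIF). There were 6 groups of 4 libraries: wild type, the knockout line Smad2_KO1 and the knockout line Smad2_KO2, each in control medium or in a paused state brought on by 200 nM INK128, an mTOR inhibitor, for 12 h. The labels do not say how the lines were derived or whether replicates were separate cultures, and each knockout line may be 1 clone. The series title names repression of Pparg by Nodal and Smad2, so Pparg is a gene the study itself singled out.

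PPARs are nuclear receptors that bind fatty acids and their derivatives and act on DNA as pairs with an RXR receptor, a retinoid receptor that also partners many other nuclear receptors. Without ligand the pair can hold co-repressors such as NCoR1, and with ligand it takes up co-activators such as the PGC-1 proteins. PPARγ is the central factor of fat cell formation, where it and C/EBPα maintain each other's expression, and it is also needed in the trophoblast of the placenta. PPARα is best known for fatty acid oxidation in liver, and PPARδ is expressed in most tissues.

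Pparg can be transcribed from several start sites, and its starts are shown because the deposited value adds all of them together. RefSeq windows (GRCm38.p6) were found for all members except Ppargc1b. On mouse chromosome 6, plus strand, 3 Pparg windows are listed, the last of which lies 60922 bases downstream of the first, inside the gene, at the start of the longer protein form typical of fat cells. Pparg itself spans chr6:115360951-115490399 in GENCODE M21 and its longest protein-coding transcript has 8 exons. The windows upstream of Cebpa (plus strand; a gene of 1 exon) and of the downstream Rxra start are shown beside them, because these genes were also higher in the knockout in both conditions; the Rxra start was picked for its motif matches. Cebpa lies at chr7:35119293-35121928 and Rxra at chr2:27676440-27762957. Each line gives the 250 bases before a start, 5′ to 3′, with motif matches in capitals.
Pparg, upstream start, chr6:115360894-115361143: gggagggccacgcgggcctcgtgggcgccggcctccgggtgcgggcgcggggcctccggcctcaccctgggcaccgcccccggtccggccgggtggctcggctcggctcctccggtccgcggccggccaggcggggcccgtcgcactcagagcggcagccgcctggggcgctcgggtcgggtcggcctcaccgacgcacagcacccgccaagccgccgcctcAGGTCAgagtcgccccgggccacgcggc
Pparg, middle start, chr6:115362099-115362348: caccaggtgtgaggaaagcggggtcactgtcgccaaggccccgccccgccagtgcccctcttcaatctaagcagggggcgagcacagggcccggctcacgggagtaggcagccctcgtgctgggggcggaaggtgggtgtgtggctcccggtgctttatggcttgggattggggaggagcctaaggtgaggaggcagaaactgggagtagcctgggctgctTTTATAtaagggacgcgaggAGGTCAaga
Pparg, downstream start, chr6:115421816-115422065: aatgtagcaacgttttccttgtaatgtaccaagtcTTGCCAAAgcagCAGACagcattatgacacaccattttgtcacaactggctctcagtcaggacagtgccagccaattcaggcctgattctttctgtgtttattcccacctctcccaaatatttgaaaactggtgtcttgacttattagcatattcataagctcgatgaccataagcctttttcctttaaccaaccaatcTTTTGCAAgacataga
Cebpa, chr7:35119043-35119292: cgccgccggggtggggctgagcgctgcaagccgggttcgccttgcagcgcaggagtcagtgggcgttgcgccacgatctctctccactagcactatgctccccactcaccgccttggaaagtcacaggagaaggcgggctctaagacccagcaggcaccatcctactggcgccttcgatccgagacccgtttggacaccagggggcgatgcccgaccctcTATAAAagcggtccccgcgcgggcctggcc
Rxra, downstream start, plus strand, chr2:27709042-27709291: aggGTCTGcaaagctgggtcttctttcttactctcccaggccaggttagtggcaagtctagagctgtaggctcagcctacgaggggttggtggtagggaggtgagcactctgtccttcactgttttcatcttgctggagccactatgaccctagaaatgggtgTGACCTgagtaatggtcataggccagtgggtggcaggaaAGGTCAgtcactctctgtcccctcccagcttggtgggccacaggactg

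The capitals mark matches, on either strand, to the nuclear receptor core AGGTCA, the Smad box CAGAC, the C/EBP core TTGCNNAA and the TATA box TATAAA. The upstream and the middle Pparg window each hold 1 receptor core, from 28 to 23 and from 9 to 4 bases before the start, and the middle one also holds a TATA box. The downstream Pparg window holds 2 C/EBP cores, from 215 to 208 and from 16 to 9 bases before the start, and 1 Smad box from 203 to 199. The Rxra window holds 2 receptor cores and 1 Smad box, and the Cebpa window only a TATA box, from 30 to 25 bases before the start. Of 32851 RefSeq windows of this length, 14% hold the receptor core, 42.2% the Smad box, 9.56% the C/EBP core and 12.4% the TATA box. The full direct repeat AGGTCANAGGTCA, which contains the core on both sides of 1 free base, and the palindrome GTCTAGAC were also searched, on both strands; 0.0335% and 0.167% of windows hold them and none of the 15 member windows does. The upstream Pparg window is 82.4% G and C and the downstream one 40.8%, against a median of 52.4% over all windows. These are matches of letters only.

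Values are those of the tables the authors deposited, separate for each condition, which give per gene a mean normalized count, a log2 change, its standard error (SE) and a p adjusted over all genes. No value for a single library is in them, so the spread and the depth of each library are unknown, no change has a check by library, and the knockout lines cannot be told apart. The SE and p count libraries as the replicates, and at most 2 knockout lines stand behind them. Spread between independently made lines is thus not measured by them or by intervals drawn from the SE. Changes are read as knockout over wild type because the Smad2 transcript is lower in both, with log2 changes of -0.35 (SE 0.07) for control and -0.63 (SE 0.06) for paused cells by the authors' deposited tables; the tables do not name the numerator. At an adjusted p under 0.05, the threshold used throughout, 41.4% of genes were called in control cells and 42.6% in paused cells, so a call by itself is common here. Markers of the labelled cell type were present: all 10 embryonic stem cell genes of a fixed list were listed, with means from 7573 (Tbx3) to 51710 (Pou5f1) normalized counts in control cells by the authors' deposited table. Fat cell markers were scarce. Adipoq, Retn and Cfd had means of 13.2, 4.62 and 7.12 in control cells by the authors' deposited table and were not called, Lep, Plin1 and Fabp4 were not listed, and in the paused table none of the 6 was.

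Of the 9 listed members, 6 were called in each condition, 5 higher and 1 lower, where 19.5% of all genes were called higher and 21.9% lower in control cells. In paused cells these shares were 20.5% and 22%. Pparg, Ppard, Rxra, Ncor1 and Cebpa rose in both. The member that fell was Rxrg in control cells and Rxrb in paused cells. Ppara and Ppargc1b were called in neither. The median change of the 9 was 0.37 in control and 0.35 in paused cells, where the median of all genes was 0.00 in both.

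**Figure D1:**
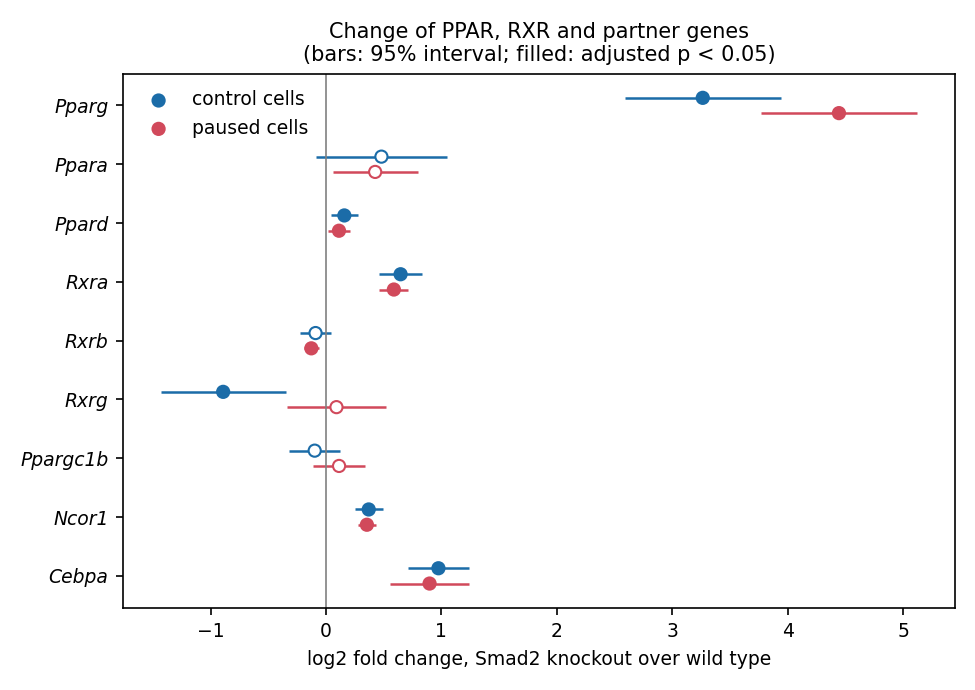
Log2 fold change of each listed member, Smad2 knockout over wild type, in control (blue) and paused (red) cells, with 95% intervals from the deposited standard errors; filled points have an adjusted p under 0.05. Pparg lies at 3.26 and 4.44, and every other member lies between -0.89 and 0.97.

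Among the receptors that bind fatty acids, Pparg had by far the largest change. For control cells the authors' deposited table gives it a mean of 48.0 normalized counts and a log2 change of 3.26 (SE 0.34, DESeq2 adjusted p 1.96e-19). The authors' deposited table gives, in paused cells, a mean of 85.7 and a log2 change of 4.44 (SE 0.34, DESeq2 adjusted p 8.73e-36). In folds with 95% intervals, Pparg was 9.61-fold (6.02 to 15.3) higher in control and 21.8-fold (13.6 to 34.8) higher in paused knockout cells. It ranked 15 from the top of the log2 changes of all genes in control cells and 9 in paused cells.

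The fold of Pparg rests on a low wild-type level. A mean and a change together imply a level per genotype if the number of libraries behind the mean is known; 4 wild-type and 8 knockout libraries are assumed here. The implied Pparg level was 7.13 normalized counts in wild-type and 68.5 in knockout control cells. In paused cells it was 5.77 and 126. With 4 knockout libraries in place of 8, the implied wild-type levels would be 9.05 and 7.53 and the knockout levels 87.0 and 164. On either assumption the wild-type level was under 10 normalized counts and the knockout level at least 68.5.

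The change of Pparg in paused cells exceeded that in control cells by 1.18 on the log2 scale (SE 0.49, 95% interval 0.22 to 2.14), computed from both tables, and this did not pass adjustment over the 19134 genes in both tables (raw p 0.0155, adjusted p 0.237, two-sided normal test). In that test 1.44% of all genes were called and none of the 9 members was; 2 members had an unadjusted p under 0.05, Pparg and Rxrg.

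Of the other PPARs, Ppard rose slightly and Ppara was not called. Ppard, the PPAR with the highest level per kilobase, had means of 1456 and 1323 normalized counts in the authors' deposited tables (control, then paused). Its log2 changes in the authors' deposited tables were 0.16 (SE 0.06, DESeq2 adjusted p 0.0214) and 0.11 (SE 0.05, adjusted p 0.0420), which are rises of 1.12-fold and 1.08-fold. Neither call held at an adjusted p under 0.01, and when tested for a change beyond 1.2-fold the adjusted p was 1 in both conditions. Ppara, with means of 23.2 and 54.8 in the authors' deposited tables, had log2 changes of 0.48 (SE 0.29, adjusted p 0.180) and 0.43 (SE 0.19, DESeq2 adjusted p 0.0532). Both Ppara values lie above 0, and neither passed the threshold. The 95% interval of the paused-minus-control difference was -0.20 to 0.10 for Ppard and -0.73 to 0.62 for Ppara.

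Per kilobase of the longest protein-coding transcript, Ppard remained the main PPAR transcript in each genotype. Pparg made up 0.797% of the summed implied level of the 3 PPAR genes per kilobase in wild-type control cells and 6.44% in knockout control cells. In paused cells its share was 0.681% in wild type and 12.0% in knockout. Ppard held the largest share throughout, 97.9% and 92.1% in wild-type and knockout control cells and 96.0% and 84.4% in paused cells. With 4 knockout libraries assumed, the knockout shares of Pparg would be 7.91% and 15.0%.

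**Figure D2:**
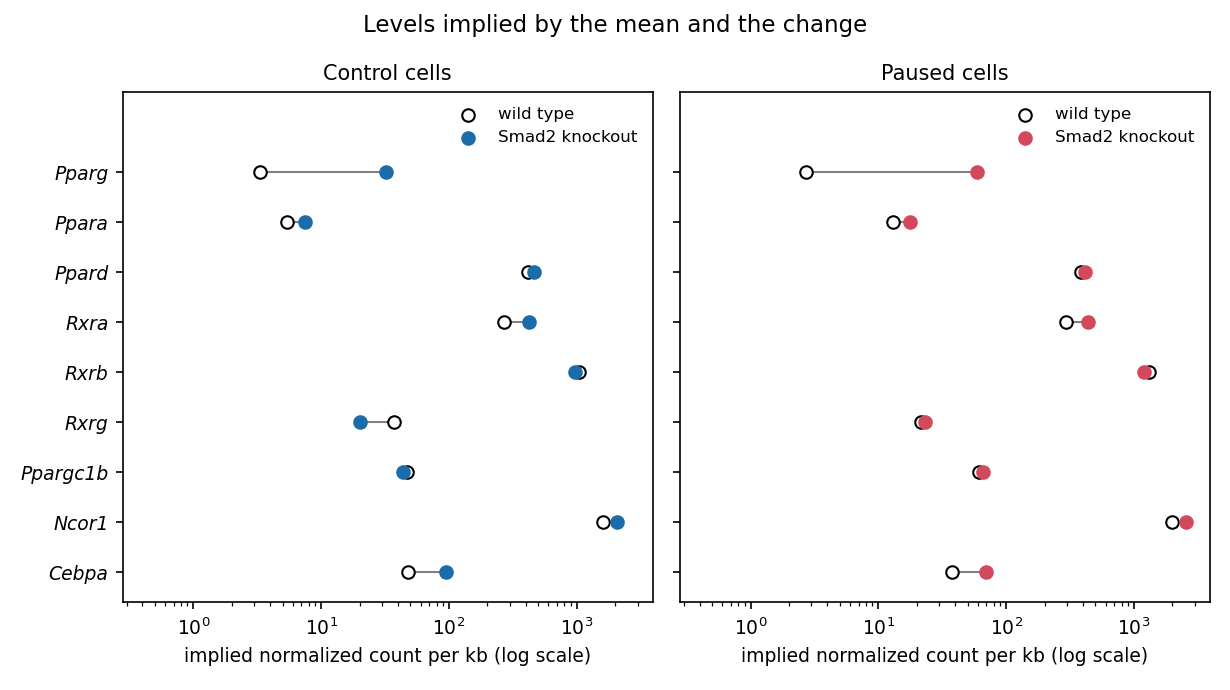
Levels per kilobase of transcript on a log axis, implied by the deposited mean and change with 4 wild-type (open) and 8 knockout (filled) libraries assumed, in control cells (left) and paused cells (right). Pparg moves from the lowest place of the 9 members in wild type, 3.35 and 2.72 per kilobase, to 32.2 and 59.1 in the knockout.

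Among the RXR receptors, which every PPAR needs as its DNA-binding partner, Rxra rose, while Rxrb and Rxrg each fell in 1 condition. Rxra had means of 1823 and 1922 normalized counts and log2 changes of 0.65 (SE 0.10, DESeq2 adjusted p 3.18e-10) and 0.59 (SE 0.06, adjusted p 2.14e-18) in the authors' deposited tables (control, then paused). These are 1.57-fold (95% interval 1.37 to 1.78) and 1.5-fold (1.38 to 1.64). The paused-minus-control difference for Rxra was -0.06, with an interval of -0.28 to 0.17.

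Rxrb was the RXR gene with the highest level per kilobase, with means of 2613 and 3228 normalized counts in the authors' deposited tables. Its log2 change in the authors' deposited table was -0.09 in control cells (SE 0.07, DESeq2 adjusted p 0.297) and -0.13 in paused cells (SE 0.03, adjusted p 4.84e-04). The fall in paused cells was small, to 91.6% of wild type, and the interval of the difference between conditions was -0.18 to 0.11. The call in paused cells rests on the small standard error and was lost when tested for a change beyond 1.2-fold.

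Rxrg, an isotype best known from muscle and brain, had a low level, with means of 54.4 and 47.8 normalized counts in the authors' deposited tables. Its log2 change in the control table the authors deposited was -0.89 (SE 0.28, DESeq2 adjusted p 0.00457), a fall to 53.9% of wild type. In paused cells the authors' deposited table gives 0.09 (SE 0.22, adjusted p 0.774). The difference between these changes, 0.98 (SE 0.35, 95% interval 0.29 to 1.67), had a raw p of 0.00541 and an adjusted p of 0.146, so a dependence of Rxrg on pausing was not called. The fall in control cells did not pass when tested for a change beyond 1.2-fold (adjusted p 0.0832).

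Per kilobase, the share of Rxra in the implied level of the 3 RXR genes was 20.1% in wild-type and 29.8% in knockout control cells, and 18.1% and 26.6% in paused cells. Rxrb held 77.1% and 68.8% in control cells; in paused cells it held 80.5% and 72.0%. Rxrg held at most 2.77%.

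Of the co-regulators, Ncor1 codes for the co-repressor scaffold that brings histone deacetylase 3 to unliganded receptors. It was the most abundant member per kilobase of transcript, with means of 17208 and 21307 normalized counts in the authors' deposited tables. Ncor1 rose in both conditions: the authors' deposited tables give log2 changes of 0.37 (SE 0.06, DESeq2 adjusted p 1.83e-08) and 0.35 (SE 0.04, adjusted p 1.57e-16). The folds were 1.29 (95% interval 1.19 to 1.40) and 1.28 (1.21 to 1.35), and the interval of the difference on the log2 scale was -0.16 to 0.13. Neither call held when tested for a change beyond 1.2-fold (adjusted p 0.216 and 0.0896). Ncor1 shares 82 exon bases with Pigl and 1 with Ttc19, both on the opposite strand, out of 12811.

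Ppargc1b, which codes for the co-activator PGC-1β, had means of 163 and 235 normalized counts in the authors' deposited tables. Its log2 changes there were -0.10 (SE 0.11, DESeq2 adjusted p 0.514) and 0.11 (SE 0.12, adjusted p 0.459). The 95% interval of the change ran from -0.32 to 0.12 in control cells and from -0.12 to 0.34 in paused cells.

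Cebpa, whose product C/EBPα activates Pparg in fat cells, had the next largest change after Pparg. The authors' deposited table gives, in control cells, a mean of 208 normalized counts and a log2 change of 0.97 (SE 0.13, DESeq2 adjusted p 1.10e-11), and that for paused cells a mean of 155 and 0.90 (SE 0.17, adjusted p 2.17e-06). The folds were 1.96 (95% interval 1.64 to 2.36) and 1.86 (1.47 to 2.36). The implied level went from 127 to 249 normalized counts in control cells and from 98.5 to 184 in paused cells. The difference between conditions was -0.08, with an interval of -0.51 to 0.35. An antisense gene listed in neither table, Gm45091, shares 51 exon bases with Cebpa, and whether the counting used strand is not given in the sources used here.

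**Figure D3:**
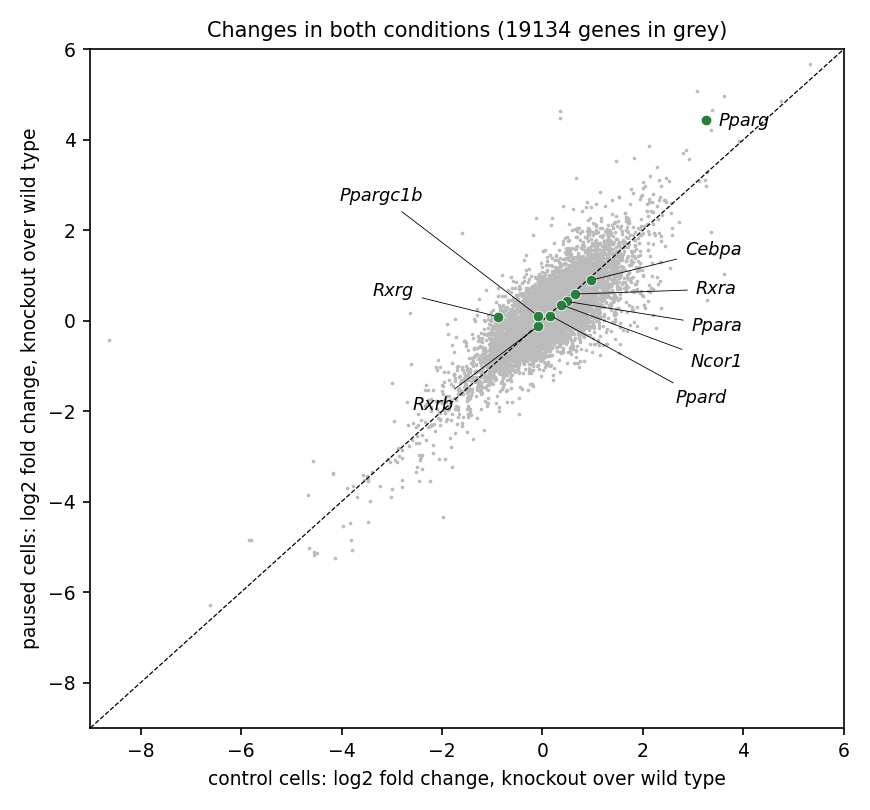
Log2 fold change in control cells (horizontal) against that in paused cells (vertical) for the 19134 genes in both tables (grey) and the 9 listed members (green); the dashed line marks equal change. Pparg stands far from the other members at 3.26 and 4.44, and Rxrg, at -0.89 and 0.09, is the member that lies farthest from the line after Pparg.

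The deposited means, which pool wild-type and knockout libraries, gave much the same order in both tables. Per kilobase of transcript they ranked Ncor1 (1904 in control and 2358 in paused cells), Rxrb (995 and 1229), Ppard (444 and 404) and Rxra (372 and 392) above the rest. Cebpa (79.2 and 59.1), Ppargc1b (44.6 and 64.3), Rxrg (25.8 and 22.7), Pparg (22.6 and 40.3) and Ppara (6.80 and 16.1) followed. Cebpa and Ppargc1b changed places between the tables, as did Rxrg and Pparg. In the implied wild-type levels Pparg came last, at 3.35 and 2.72 per kilobase, below Ppara at 5.39 and 13.1. No spread over libraries is known for these levels, so whether neighbours in this order differ was not tested.

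The genes whose pair of changes lay nearest to that of Pparg, among the 5822 other genes called in both tables, were Nxf7, Plac1, Serpinb9c and Serpinb9d, at Euclidean distances of 0.25, 0.25, 0.63 and 0.65 over the 2 log2 changes. Plac1, a gene named for its expression in placenta, had log2 changes of 3.38 (SE 0.24) and 4.67 (SE 0.32) in the authors' deposited tables (control, then paused). Nxf7, of the mRNA export factor family, had 3.36 (SE 0.21) and 4.21 (SE 0.25) in the authors' deposited tables. Serpinb9c and Serpinb9d are close paralogs at means of 14.6 to 22.8 normalized counts in the authors' deposited tables, and their separate values are uncertain. Nearest to Cebpa, at distances of 0.015 to 0.023, were Rpgrip1, LOC100503047, Bmi1 and LOC108167725. Bmi1, which codes for a Polycomb protein, had 0.96 (SE 0.10) and 0.88 (SE 0.11) in the authors' deposited tables.

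Markers of other lineages moved in the same tables. Of 7 trophoblast genes, 3 were called higher and 2 lower in control cells, and 3 higher and 1 lower in paused cells. The called shares of this list, 71.4% and 57.1%, stand beside 41.4% and 42.6% of all genes. The summed implied level of that list was 6163 in wild-type and 7846 in knockout control cells, and 6804 and 8016 in paused cells. Tfap2c made up most of it, with means of 5071 and 5499 in the authors' deposited tables (control, then paused) against summed means of 7285 and 7612. Hand1, a trophoblast and mesoderm factor, rose by 1.95 (SE 0.18) and 2.69 (SE 0.26), Ascl2 by 1.35 and 1.01 and Krt7 by 1.29 and 1.26 in the authors' deposited tables (control, then paused). Cdx2, the factor that sets up trophoblast fate, fell by 0.84 (SE 0.22) and 0.92 (SE 0.35) in the authors' deposited tables. Eomes fell by 0.94 (SE 0.18) in control cells and had -0.06 (SE 0.18) in paused cells, where it was not called, by the authors' deposited tables. Elf5 and Tfap2c were called in neither. Of 8 primitive endoderm genes, 7 were called higher in each condition, beside 19.5% of all genes in control and 20.5% in paused cells. The sums of these 8 were 3664 and 5602 in control and 4851 and 7359 in paused cells. Lama1 made up most of them, with means of 3927 and 4722 in the authors' deposited tables against summed means of 4956 and 6523. Of 6 fibroblast genes, 4 of 5 listed in control and 3 of 4 listed in paused cells were called lower. The shares of all genes called lower were 21.9% and 22%. The fibroblast sums were 1418 and 510 in control and 1194 and 586 in paused cells. Of the 10 stem cell markers, 3 were called higher and 2 lower in each condition. That is 50% called each time, where all genes gave 41.4% and 42.6%. Stem cell markers summed to 259875 and 252214 in control and to 225674 and 226462 in paused cells. In bulk RNA, more cells of a type and more RNA per cell cannot be told apart, and the part of these lineages in the change of Pparg was not tested.

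The rest of the pathway was described by 8 lists of 107 genes, of which 97 were listed in control and 94 in paused cells. In control cells 47 were called, 29 higher and 18 lower, where 41.4% of all genes were called, 19.5% higher and 21.9% lower. In paused cells 50 were called, 35 higher and 15 lower, where 42.6% of all genes were, 20.5% higher and 22% lower. With both genotypes set to equal summed counts, the split was 35 higher and 15 lower in control cells, and 38 and 12 when paused.

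Genes known as PPAR targets in fat, liver or muscle moved far less than Pparg. Of 35, 26 were listed in control cells, with 7 called higher, 2 lower and 17 not called, and a median change of 0.21. In paused cells 24 were listed, with 8 called higher, 0 lower and 16 not called, and a median of 0.20. The share called in either direction was 34.6% in control and 33.3% in paused cells, beside 41.4% and 42.6% of all genes; the 7 of 26 and 8 of 24 called higher stand beside 19.5% and 20.5% of all genes. Neither contrast with all genes was tested. The mitochondrial carnitine carrier gene Slc25a20 changed by 1.01 (SE 0.05) and 0.94 (SE 0.05) in the authors' deposited tables (control, then paused). Acaa2, a thiolase of fatty acid oxidation, had 0.88 (SE 0.09) and 1.06 (SE 0.09), and Lpl, the lipase that frees fatty acids from lipoproteins, 1.21 (SE 0.13) and 1.48 (SE 0.13) in the authors' deposited tables. Cidea and Cidec, which code for lipid droplet proteins, were also higher in both, Cidec at means of 11.7 and 10.0 normalized counts in the authors' deposited tables. The lipid droplet coat gene Plin2 went the other way in control cells, by -0.95 (SE 0.28, DESeq2 adjusted p 0.00261), and was not called in paused cells (-0.34, adjusted p 0.207) in the authors' deposited tables. Fabp4, Cd36 and Plin1, common readouts of PPARγ in fat cells, were listed in neither table.

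**Figure D4:**
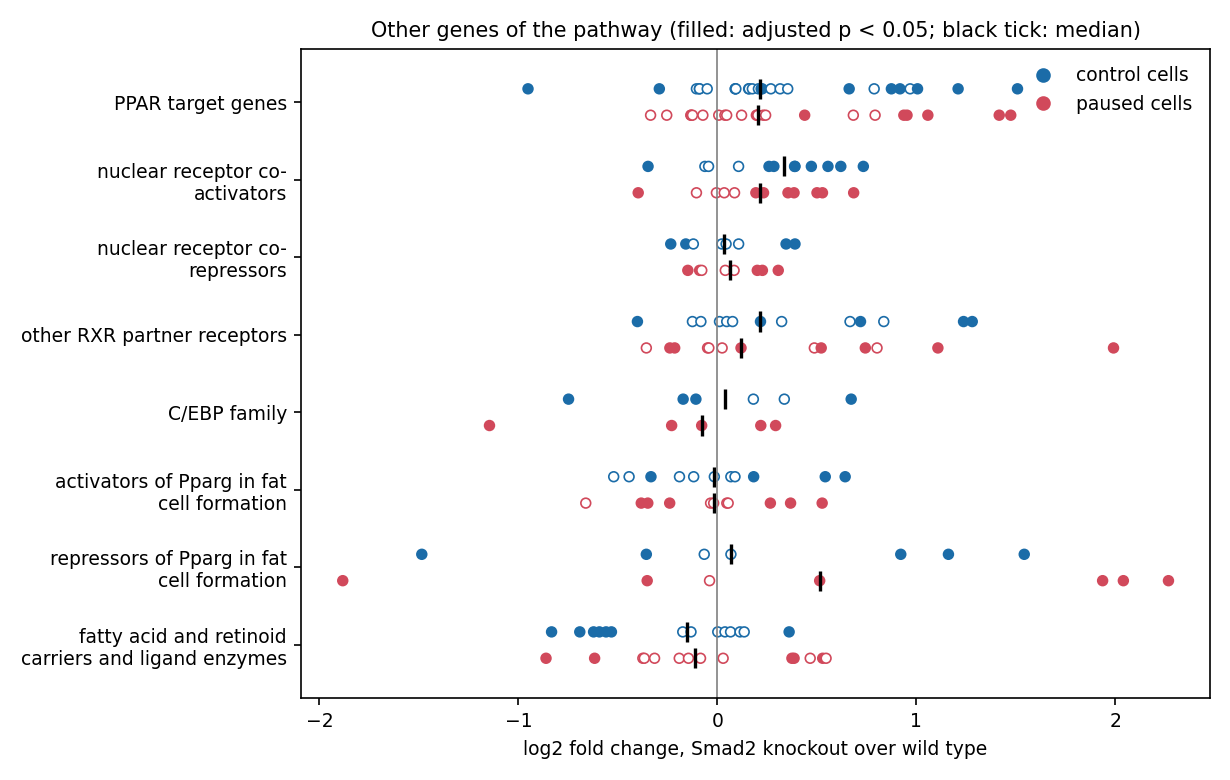
Log2 fold change, knockout over wild type, of each listed gene of 8 pathway lists in control (blue) and paused (red) cells; filled points have an adjusted p under 0.05 and black ticks are list medians. PPAR targets reach 1.51 in control cells (Cidec) and 1.48 in paused cells (Lpl). In paused cells Gata2, Gata3 and Nr2f2, on the repressor list, reach 2.27, 2.04 and 1.94, and Thrb, on the RXR partner list, reaches 1.99.

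Co-activators were mostly higher. Against 41.4% and 42.6% of all genes, 9 of 12 and 8 of 12 were called: 8 were called higher and 1 lower in control cells (median 0.34), and 7 higher and 1 lower in paused cells (median 0.21). The shares of all genes called higher were 19.5% and 20.5%. Most of these co-activators have means above 5 ppm of the summed counts, and of all genes at that level 51.6% and 53% were called in either direction. All 3 p160 co-activator genes rose in the authors' deposited tables (control, then paused): Ncoa1 by 0.73 (SE 0.07) and 0.69 (SE 0.05), Ncoa2 by 0.56 (SE 0.08) and 0.50 (SE 0.04), and Ncoa3 by 0.39 (SE 0.05) and 0.39 (SE 0.03). Prdm16, a co-regulator of brown fat, rose by 0.62 and 0.53, and Lpin1, a phosphatidate phosphatase that also acts as a co-activator, by 0.47 and 0.19 in the authors' deposited tables. Carm1, an arginine methyltransferase that acts with p160 proteins, fell by 0.35 and 0.40 in the authors' deposited tables. Med1, Ep300 and Pprc1 were called in neither condition.

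Of the 8 co-repressor genes listed beside Ncor1, 2 were called higher and 2 lower in control cells, and 3 higher and 2 lower in paused cells, with medians of 0.03 and 0.06. That is 50% and 62.5% called, beside 41.4% and 42.6% of all genes. Hdac3, the deacetylase that NCoR1 binds, fell by 0.23 in control and 0.09 in paused cells, and Tbl1x, a further subunit, by 0.16 and 0.15 in the authors' deposited tables. Lcor rose by 0.39 and 0.31 and Nrip1 by 0.35 and 0.23 in the authors' deposited tables. Tbl1xr1 was called in paused cells only, at 0.20, with 0.11 in control cells by the authors' deposited tables; the difference was not called (adjusted p 0.657).

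RXR also pairs with other receptors. Of 13 such partner genes, 4 were called higher and 1 lower in control cells, and 5 higher and 2 lower in paused cells, with medians of 0.22 and 0.12. Of these partners 38.5% and 53.8% were called, against 41.4% and 42.6% of all genes. The vitamin D receptor gene Vdr rose by 1.28 (SE 0.21) and 1.11 (SE 0.16), and the thyroid hormone receptor gene Thrb by 1.24 (SE 0.34) and 1.99 (SE 0.34), in the authors' deposited tables (control, then paused). Both were low, with means of 60.4 and 79.1 for Vdr and 22.0 and 19.5 for Thrb in the authors' deposited tables. The bile acid receptor gene Nr1h4 rose by 0.72 and 0.74, and the retinoic acid receptor gene Rara fell by 0.40 and 0.21, in the authors' deposited tables. Rarg, the retinoic acid receptor gene with the highest mean count, rose by 0.22 and 0.12 in the authors' deposited tables, and Rarb was called in neither condition. The orphan receptor gene Nr4a2 rose by 0.52 and its relative Nr4a1 fell by 0.24 in paused cells by the authors' deposited table; in control cells neither was called.

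Within the C/EBP family, which acts before and with PPARγ in fat cell formation, the members did not move as a block. Cebpb rose by 0.67 (SE 0.14) and 0.29 (SE 0.11), whereas Cebpd fell by 0.75 (SE 0.16) and 1.15 (SE 0.20), in the authors' deposited tables (control, then paused). Cebpg fell by 0.17 and 0.23 in the authors' deposited tables. Cebpz, which was listed for its symbol and does not code for a C/EBP protein, fell by 0.11 and 0.08 there. Ddit3, whose product pairs with C/EBP proteins under stress, rose by 0.22 in paused cells and had 0.18 in control cells, where it was not called, in the authors' deposited tables. With Cebpz included, the median of the 6 genes was 0.04 in control cells. That of the 5 listed in paused cells was -0.08, the value of Cebpz itself. In control cells 4 of the 6 were called and in paused cells 5 of 5, Cebpz among them each time, beside 41.4% and 42.6% of all genes.

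Factors that raise Pparg in fat cell formation were called in both directions: of 11, 3 were called higher and 1 lower in control cells, and 3 higher and 3 lower in paused cells, with medians of -0.01 and -0.02. The shares called, 36.4% and 54.5%, stand beside 41.4% and 42.6% of all genes. Klf15 rose by 0.54 (SE 0.06) and 0.37 (SE 0.05) and Stat5a by 0.64 (SE 0.12) and 0.27 (SE 0.09), while Stat5b fell by 0.33 and 0.24, in the authors' deposited tables. In paused cells, by the authors' deposited table, Zfp467 rose by 0.53, and Ebf1 and Zfp423 fell by 0.38 and 0.35; none of these was called in control cells.

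Among 7 genes known as repressors of Pparg in fat cell precursors, 3 rose and 2 fell in control cells and 4 rose and 2 fell in paused cells, with medians of 0.07 and 0.51. The background was 41.4% and 42.6% of all genes called. Gata2 and Gata3, which hold preadipocytes back from becoming fat cells and also act in trophoblast, rose together with Pparg. Gata2 rose by 1.16 (SE 0.10) and 2.27 (SE 0.16), and Gata3 by 1.54 (SE 0.13) and 2.04 (SE 0.15), in the authors' deposited tables (control, then paused). Nr2f2, the orphan receptor COUP-TFII, rose by 0.92 (SE 0.26) and 1.94 (SE 0.31) at means of 43.0 and 34.8 normalized counts in the authors' deposited tables. Dlk1 rose by 0.51 in paused cells by the authors' deposited table, and was not called in control cells. Wnt10b fell by 1.49 and 1.88 at means of 10.2 and 11.5, and Foxo1 by 0.36 and 0.35, in the authors' deposited tables.

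Genes for fatty acid and retinoid carriers and for enzymes of ligand supply numbered 15, of which 14 were listed. In control cells 1 was called higher and 6 lower (median -0.15), and in paused cells 3 higher and 2 lower (median -0.11). These are 50% and 35.7% called, where all genes gave 41.4% and 42.6%. The rise in control cells was that of the fatty acid carrier gene Fabp3, by 0.36 (SE 0.09), with 0.03 (SE 0.08) in paused cells, by the authors' deposited tables. The rises in paused cells were those of Aldh1a2, which makes retinoic acid, by 0.53 (SE 0.14), and of the retinoic acid carrier genes Crabp1 by 0.39 (SE 0.13) and Crabp2 by 0.38 (SE 0.12), by the authors' deposited table. Cyp26a1, which degrades retinoic acid, fell by 0.53 and 0.86, and Ptgs1, a cyclooxygenase gene, by 0.56 and 0.62, in the authors' deposited tables (control, then paused). Fabp5, which carries fatty acids to PPARδ, fell by 0.62 in control cells by the authors' deposited table, as did Ptgs2 by 0.69 and Alox15 by 0.83. These 3 had -0.19, -0.37 and -0.32 in paused cells by the authors' deposited table, where none was called, and none of their differences between conditions was called.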

How the data were processed

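The series holds 24 poly(A) RNA libraries, grouped by title into 6 groups of 4. Per the submitters' processing notes, FastQC, Trim Galore, HISAT2, featureCounts and DESeq2 were used with the mm10 build; versions, annotation, strand setting and the knockout lines in each comparison are not given in the sources used here. Per the file headers, the authors deposited DESeq2 results: a mean normalized count (a signal value), a log2 change, its SE on the log2 scale, a statistic (a score: change over SE), a p-value and an adjusted p-value. These were checked against each other to within rounding. Depth per library is unknown.

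The authors' DESeq2 adjusted p was used as deposited, with calls under 0.05. The difference between conditions was the paused minus the control change over the combined SE, two-sided, with Benjamini-Hochberg adjustment over 19134 genes; the tables were normalized separately. Intervals are 95% normal intervals from the SE. Levels per genotype were implied from mean and change. Motifs were searched in RefSeq windows (GRCm38.p6, the assembly of mm10), and transcript lengths came from GENCODE M21. Members (a list of symbols with no threshold on a value) and lists were chosen with earlier results of these data known. Named were all members and Smad2, from each list up to 6 called genes, the most changed first, the 4 genes nearest to Pparg and the 4 nearest to Cebpa; other genes named were chosen after their values were seen, and a few genes are not reported here. Python 3.11.15, numpy 2.4.6, scipy 1.17.1 and pandas 2.3.3 were used.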

Additional observations from a re-analysis of the deposited data

Results flagged for a closer look

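The knockout effect differed between paused and control cells, by the test of the difference itself with adjustment over all genes, for 3 genes of the lists reported here and for none of the members; 1.44% of all genes were called in this test, so a few calls among these lists are not particular to them. Gata2 had a difference of 1.11 (SE 0.19, adjusted p 2.94e-05), rising in both conditions and more in paused cells. The trophoblast and mesoderm factor Eomes had 0.89 (SE 0.25, adjusted p 0.0326): its log2 change in the authors' deposited tables was -0.94 in control and -0.06 in paused cells. The pluripotency factor Klf4 had -0.30 (SE 0.08, adjusted p 0.0264), with 0.56 and 0.26 in the authors' deposited tables.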

How the results depend on the processing

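Of 7 alternatives, 5 leave each change as deposited and 2 shift all changes of a table by one constant (-0.0552 at the largest, on the log2 scale). Each called member change is larger than this shift. The count of 6 members called in control cells became 3 when tested for a change beyond 1.2-fold (12.2% of all genes), 1 when the statistic was rescaled to the median size of a standard normal (1.48%), 1 with a change of at least 2-fold (6.98%), and 3 with a minimum mean of 5 ppm of the summed counts, which only 4 members reach (51.6%). The count of 6 in paused cells became 3, 2 and 1 under the first 3 of these (12.1%, 2.25% and 7.1% of all genes). The 47 pathway genes called in control cells became 21, 5 and 8, and the 50 in paused cells 16, 8 and 10. Pparg passed the threshold in both conditions under each alternative except the minimum mean, which it does not reach. Its adjusted p under the scaled statistic was 0.0439 in control cells, close to the threshold, and 7.55e-04 in paused cells. Under that statistic Rxra kept its call in paused cells only (adjusted p 0.0481, with 0.301 in control cells). Cebpa, Ncor1, Ppard, Rxrb and Rxrg lost theirs, and the cause was not tested. Equal summed counts added Ppara in paused cells (adjusted p 0.0359). No member differed between conditions under any alternative. With 4 knockout libraries assumed, Pparg would rank 5 rather than 7 per kilobase in paused knockout cells. No paired analysis was possible because the tables hold no value per library; leaving out replicates was not run for the same reason.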

Other observations

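The nuclear receptors outside the lists were read after the results were seen. Of 27 further receptor genes, 23 were listed in each table, with 4 called higher and 7 lower in control cells and 8 higher and 5 lower in paused cells. The shares called were 47.8% and 56.5%, beside 41.4% and 42.6% of all genes. The largest rises called in both conditions were those of Nr3c2, the mineralocorticoid receptor gene, by 1.61 (SE 0.19) and 1.48 (SE 0.12), Hnf4a, a receptor gene of liver and visceral endoderm, by 1.53 (SE 0.21) and 1.56 (SE 0.15), and Esr1, the estrogen receptor gene, by 1.29 (SE 0.37) and 1.03 (SE 0.29), in the authors' deposited tables (control, then paused). Hnf4a and Esr1 were low, with means of 72.3 and 120 and of 15.0 and 29.5 normalized counts in the authors' deposited tables. Esrrb, an orphan receptor of naive stem cells and the one with the highest mean count, was called in neither condition, at 0.04 (SE 0.07) and -0.05 (SE 0.06) in the authors' deposited tables.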
